A study of Mus musculus with 3 samples.

Results

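Distal open regions seen only in lines with wildtype CDK6 were described here: 1494 regions out of 50965 merged regions of open chromatin. They came from an assay for transposase-accessible chromatin with sequencing (ATAC-seq), in which a transposase cuts DNA where nucleosomes and other proteins leave it exposed. The regions were chosen by their peak calls. The peaks of 4 lists were merged where they shared at least 1 bp, and a region was kept if both wildtype lists had a peak there while neither mutant list did. It also had to lie on 1 of 16 autosomes, which left out chromosomes 12, 13 and 18, and to touch no promoter window, which began 2000 bp before any annotated transcript start and ended 200 bp after it. On those chromosomes 1779 regions met the peak rule, and 285 of them lay at promoters and were set aside. The 1494 members made up 5.16% of the 28976 distal merged regions, and distal regions with the opposite pattern, 2610 in number, made up 9.01%. These numbers depended on list size. With the same number of peaks taken from each list, 1783 distal regions (6.76%) met the rule and 1985 had the opposite pattern. Because the members were selected on this contrast, their presence in the wildtype lines and absence from the mutant lines is a description and was not tested.

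The libraries came from mouse pre/pro-B cells that had been made into lines by carrying the BCR-ABL(p185) oncogene into bone marrow cells with a retrovirus. In all lines the marrow donors were homozygous for the Cdk6 allele. There were 2 lines with wildtype Cdk6 (WT) and 2 with Cdk6 K43M, a point mutant whose kinase is inactive, and each line gave 1 library. All 4 lines therefore carried the oncogene, and each genotype was represented by separately transformed lines. One WT list bore no replicate number and belongs to no sample of this series. The series text names 2 wildtype lines, the first of them analysed again, and the list was taken as that line. It is called WT unnumbered below, and the others are WT replicate 2, K43M replicate 1 and K43M replicate 2. With 2 lines against 2, a two-sided exact permutation test cannot give a p below 0.333, so groups of regions are compared by their counts and by Wilson 95% intervals, which cover counting error over regions and not the spread between lines.

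Distal open regions include enhancers, stretches of DNA where transcription factors bind and from which they act on promoters that may lie far away. In early B cells many enhancers are bound by E2A, EBF1, PAX5, RUNX1 and ETS factors, which together set up and keep the B-lineage programme. CDK6 is a cell-cycle kinase that also attaches to chromatin as a partner of transcription factors, with and without the use of its kinase activity. The gene named beside a region is the protein-coding gene with the nearest transcript start, and nearness does not show that the region acts on that gene.

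The 4 lists held 33038 to 39038 peaks, the most in K43M replicate 1, and the smallest summit pileup that was called was 6 or 7 read ends. Promoters of B-lineage marker genes were open in 9 of 10 cases in 3 lists and in 7 of 10 in K43M replicate 2, which lacked peaks at Cd79b and Rag1. Dntt had no promoter peak in any list. Of 16 T-cell, NK-cell, myeloid, erythroid and megakaryocytic marker promoters, none was open in WT unnumbered. Cd3d and Itga2b were open in WT replicate 2, and Itga2b alone in both K43M lists.

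The letters under the strongest members are shown first, because the results below turn on short factor motifs within 100 bp of the summit, the position of highest signal. The sequences were read from the plus strand of the RefSeq GRCm38 genome, the build of the peak files. Capitals mark matches, on either strand, to the E-box letters CAGCTG or CAGGTG, to which E proteins such as E2A bind, or to the ETS letters CCGGAAGT or CAGGAAGT. An E-box was found in 34.1% of all 28976 distal regions in windows of the same length, and an ETS match in 7.41%. The first 4 are the members that ranked best in both WT lists. They are an intron of Arpp21 (chr9:112207906-112208106), a gene-poor stretch whose nearest gene is D3Ertd751e (chr3:42449725-42449925), intergenic DNA nearest to Negr1 (chr3:155962622-155962822) and DNA downstream of Etv6 (chr6:134288523-134288723).
Arpp21: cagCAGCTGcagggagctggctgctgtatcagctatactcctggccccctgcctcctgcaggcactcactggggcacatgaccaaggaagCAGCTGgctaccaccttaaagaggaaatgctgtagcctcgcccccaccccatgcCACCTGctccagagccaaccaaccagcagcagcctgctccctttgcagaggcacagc
D3Ertd751e: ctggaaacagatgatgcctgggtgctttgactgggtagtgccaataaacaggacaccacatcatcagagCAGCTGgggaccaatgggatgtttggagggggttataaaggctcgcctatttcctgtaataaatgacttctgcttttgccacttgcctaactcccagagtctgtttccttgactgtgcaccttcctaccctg
Negr1: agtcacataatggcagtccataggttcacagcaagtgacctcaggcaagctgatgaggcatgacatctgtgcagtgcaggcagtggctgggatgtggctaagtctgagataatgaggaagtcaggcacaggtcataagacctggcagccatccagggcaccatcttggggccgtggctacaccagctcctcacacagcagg
Etv6: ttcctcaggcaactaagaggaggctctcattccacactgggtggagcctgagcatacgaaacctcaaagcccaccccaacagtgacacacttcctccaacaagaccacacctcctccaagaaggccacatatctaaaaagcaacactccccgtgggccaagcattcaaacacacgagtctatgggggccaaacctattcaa

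The other 3 are the best-ranked members near a B-lineage transcription factor gene, a B-cell signalling gene and a cytokine signalling gene. They lie upstream of Gfi1 (chr5:107739118-107739318), in an intron of Fcrl1 (chr3:87382005-87382205) and downstream of Socs3 (chr11:117952277-117952477).
Gfi1: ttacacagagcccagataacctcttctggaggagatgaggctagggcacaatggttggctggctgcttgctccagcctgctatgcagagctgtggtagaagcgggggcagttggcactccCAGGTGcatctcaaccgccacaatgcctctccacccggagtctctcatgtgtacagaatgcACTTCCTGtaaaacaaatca
Fcrl1: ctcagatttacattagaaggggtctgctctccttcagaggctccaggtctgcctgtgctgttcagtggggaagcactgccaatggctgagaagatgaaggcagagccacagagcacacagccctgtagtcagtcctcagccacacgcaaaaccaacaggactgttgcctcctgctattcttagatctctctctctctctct
Socs3: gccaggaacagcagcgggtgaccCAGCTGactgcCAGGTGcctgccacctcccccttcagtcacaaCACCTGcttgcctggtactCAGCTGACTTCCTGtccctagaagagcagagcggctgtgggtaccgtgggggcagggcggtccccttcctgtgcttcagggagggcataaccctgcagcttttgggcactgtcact

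Of these 7 stretches, 4 held E-box letters, and the Arpp21 stretch had 3 such matches. In the Socs3 stretch there were 4 E-boxes, and an ETS match followed directly on the last of them. Neither motif was found in the Negr1, Etv6 and Fcrl1 stretches. Much of the Etv6 stretch (79.1%) and of the Negr1 stretch (49.8%) was soft-masked as repeats in the genome file.

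Of the motifs counted, the E-box differed by the most percentage points between the members and regions of the opposite pattern. An E-box lay within 100 bp of the summit in 645 of the 1494 members (43.2%, interval 40.7 to 45.7). It was found in 720 of 2610 distal K43M-only regions (27.6%, 25.9 to 29.3) and in 3243 of 8537 distal regions open in all 4 lists (38.0%, 37.0 to 39.0). The 3 intervals did not overlap, and the members had the highest share. In windows moved 1000 bp away from the same summits the shares were 20.5% for members, 22.9% for K43M-only regions and 22.1% for shared regions. The summits of members thus stood well above their surroundings in E-box letters, and those of K43M-only regions by only a few percentage points. The difference of 15.6 percentage points was 7.22 without WT unnumbered, 9.45 without WT replicate 2 and 9.78 without K43M replicate 1. No test was run on it, which was noticed among 11 motifs, and regions of the same lines are not independent of each other.

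**Figure D1:**
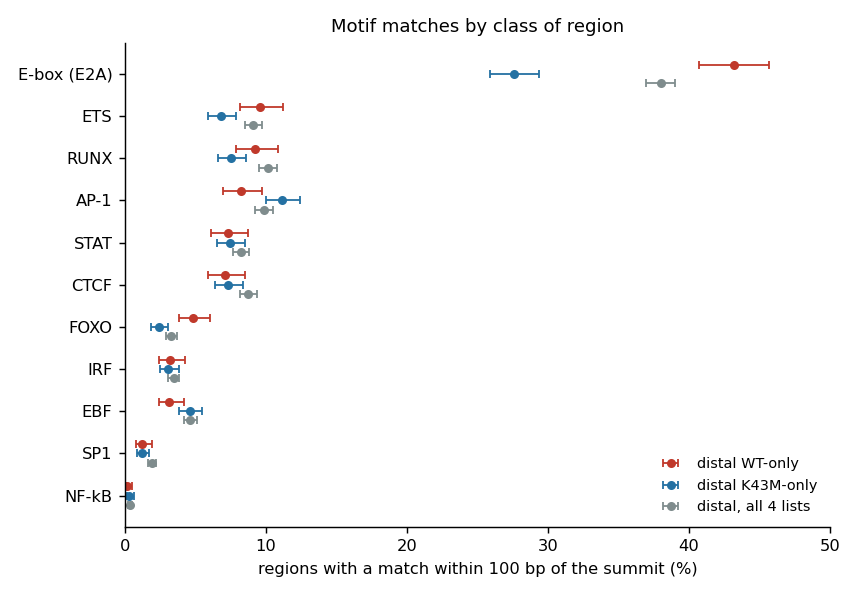
Percentage of regions with at least 1 motif match within 100 bp of the summit (x axis) for 11 motifs (y axis), in distal WT-only regions (red), distal K43M-only regions (blue) and distal regions with a peak in all 4 lists (grey). Points are shares and bars Wilson 95% intervals; the E-box row shows 43.2%, 27.6% and 38.0%, with no overlap of the bars.

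Both E-box spellings took part. CAGCTG lay near the summit of 404 members (27.0%, 24.9 to 29.4) against 16.2% of K43M-only regions (14.9 to 17.7). CAGGTG lay near 341 members (22.8%, 20.8 to 25.02) against 13.9% (12.6 to 15.3). Members with 2 or more matches numbered 169 (11.3%), and the share was 5.25% among K43M-only regions and 8.56% among shared regions.

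The matches sat at the summits. In steps of 20 bp, members held 4.28 to 7.23 matches per 100 regions within 100 bp of the summit and 2.14 to 3.28 between 100 and 300 bp from it. K43M-only regions held 2.87 to 3.87 matches per 100 regions within 100 bp, and their profile had hardly any peak. The difference was found on each chromosome: in all 16 autosomes the share of members with an E-box exceeded that of K43M-only regions, by 8.76 to 35.04 percentage points. The chromosomes came from the same 4 lines and are not replicates of this difference.

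**Figure D2:**
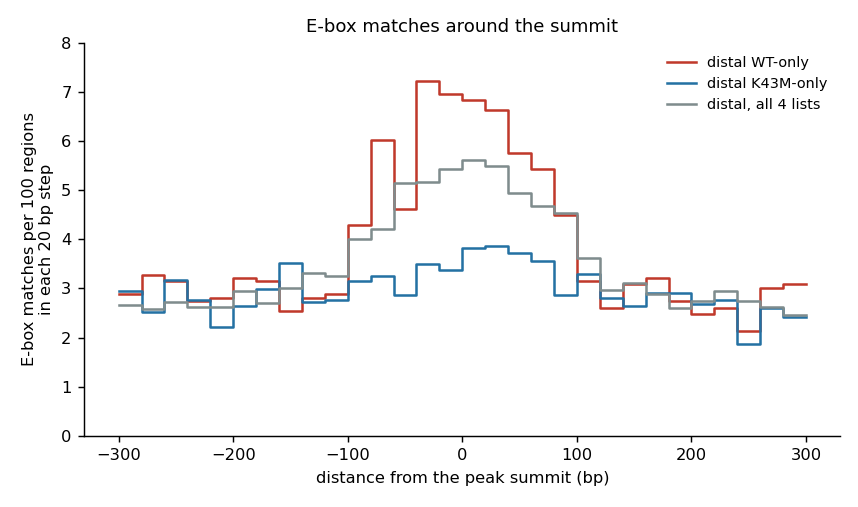
E-box matches per 100 regions in each 20 bp step (y axis) against distance from the peak summit in bp (x axis), for distal WT-only (red), distal K43M-only (blue) and shared distal regions (grey). The members' line reaches 7.23 near the summit, and the K43M-only line stays between 2.87 and 3.87 within 100 bp of it.

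E-boxes were most frequent in the best-ranked members. Each member took a percentile by −log10 q within each WT list, and the worse of these was its rank. The share was 57.9% (49.2 to 66.2) in the 126 members above the 50th percentile, 42.98% (38.6 to 47.5) in the 470 members between 25 and 50, and 41.2% (38.0 to 44.5) in the 898 at or below 25. K43M-only regions in the same 3 rank classes had 30.6%, 27.0% and 27.4%. At every rank the members thus had the higher share, and their intervals did not overlap those of the K43M-only regions (25.4 to 36.4, 24.0 to 30.1 and 25.2 to 29.7). The difference was also present in introns, with 43.9% of members against 27.3%, and between genes, with 41.0% against 27.7%.

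Regions that the rule left out gave a look at single lines. Distal regions with a peak in 1 list alone had an E-box in 34.6% of cases (32.6 to 36.7) for WT unnumbered and in 32.4% (30.5 to 34.4) for WT replicate 2. For K43M replicate 1 the share was 27.4% (26.03 to 28.8), and for K43M replicate 2 it was 32.7% (30.7 to 34.7). K43M replicate 2 fell between the WT lines, so these single-list regions did not separate the genotypes. Regions with peaks in both WT lists and 1 K43M list reached 38.2% (35.9 to 40.5), and those in both K43M lists and 1 WT list 32.3% (30.4 to 34.2).

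Other motifs differed by fewer percentage points, though FOXO letters had a higher ratio between the classes. The letters TGTTTAC of FOXO factors were near the summit of 72 members (4.82%, 3.84 to 6.03) and of 2.38% of K43M-only regions (1.86 to 3.03), and of 3.16% of all distal regions. ETS letters were found in 143 members (9.57%, 8.18 to 11.2) against 6.82% (5.91 to 7.85) and 9.09% in shared regions. For both of these motifs the members lay above the K43M-only regions with intervals apart, and for ETS they lay close to the shared regions.

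AP-1 and EBF letters ran the other way. The AP-1 letters TGANTCA, where N is any base, were found in 8.23% of members (6.94 to 9.74), in 11.1% of K43M-only regions (9.96 to 12.4) and in 9.32% of all distal regions. The EBF letters, TCCC and GGGA parted by any 2 bases, were found in 47 members (3.15%, 2.37 to 4.16), in 4.598% of K43M-only regions (3.86 to 5.47) and in 3.59% of all distal regions. AP-1 intervals were apart and EBF intervals overlapped.

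RUNX letters (TGTGGTTT or TGTGGTTA) were found in 9.24% of members, 7.51% of K43M-only regions and 8.02% of all distal regions. STAT letters (TTCNNNGAA) were found in 7.30%, 7.43% and 7.65%, and IRF letters (GAAA, any 2 bases, GAAA) in 3.21%, 3.07% and 3.30% of the same classes. These 3 motifs showed members and K43M-only regions within overlapping intervals. The core letters of CTCF, a factor found at loop anchors, were searched as CCA, AG and GGC with any 2 bases in each gap, and were found in 106 members (7.10%), 7.32% of K43M-only regions, 8.74% of shared regions and 10.9% of all distal regions. SP1 letters (GGGGCGGGG) were found in 1.205% of members and 1.48% of all distal regions, and NF-kB letters (GGGA, any base, TTTCC) in 2 members and in 0.286% of all distal regions.

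Base composition moved little between the classes. Median GC content within 100 bp of the summit was 49.8% in members, 50.7% in K43M-only regions and 51.7% in shared regions. Windows without a CpG made up 12.7%, 11.7% and 9.28%. Windows more than 50% soft-masked made up 6.36% of members (5.23 to 7.71), 5.98% of K43M-only regions and 4.13% of shared regions. The part of base composition in the motif shares was not tested.

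The members were mostly modest peaks. Their median width was 345 bp, against 363 bp for K43M-only and 602 bp for shared distal regions. Median fold enrichment, the summit signal over the local background of the same library, was 5.84 in WT unnumbered and 5.51 in WT replicate 2. Shared distal regions had 7.37 and 7.39 in the same lists. The median summit pileup of members was 17 read ends in WT unnumbered and 14 in WT replicate 2, against 27 and 25 for shared regions. By rank the median member stood at percentile 18.9 in its worse WT list, 126 members (8.43%) stood above 50 and 415 (27.8%) below 10. K43M-only regions were alike, at a median of 20.4, and shared regions stood at 47.9.

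**Figure D3:**
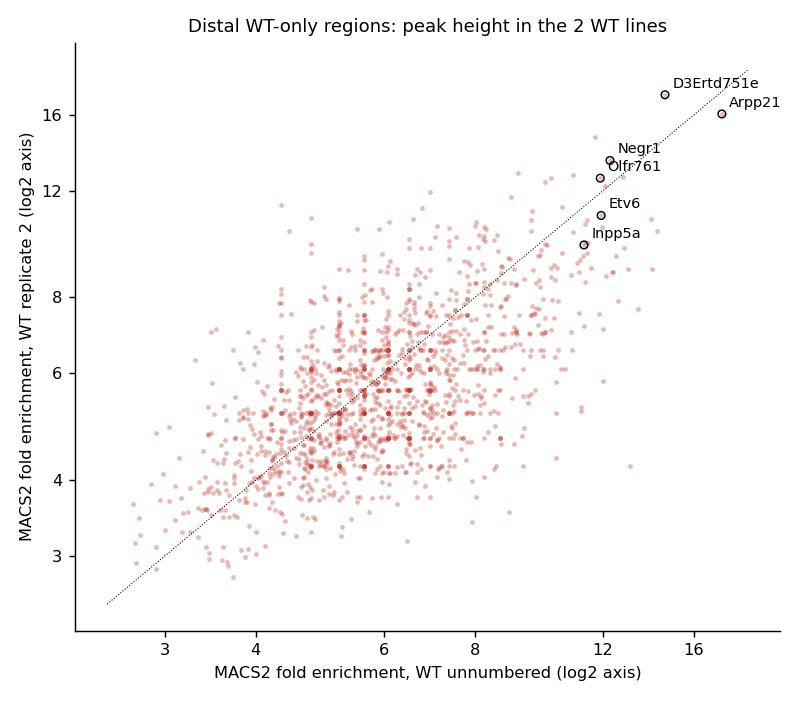
Fold enrichment at the summit in WT unnumbered (x axis, log2) and WT replicate 2 (y axis, log2) for the 1494 distal WT-only regions, 1 point each, with the diagonal dotted and the 6 best-ranked members circled and named by nearest gene. Most points lie between 4 and 8 on both axes, and Arpp21 stands apart at 17.5 and 16.05.

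The summits of the WT lists lay within 50 bp of each other in 974 members (65.2%) and within 100 bp in 1285 (86.0%), distances that the rule limits, since it asks for peaks that overlap in a narrow region. Fold enrichment was higher in WT unnumbered in 868 members (58.1%). An absent K43M peak means that the signal stayed below the calling threshold, not that the DNA was closed. After scaling by genome background, both WT pileups reached at least 2 times the smallest called pileup of each K43M list in 551 members (36.9%), and the remaining members were closer to that limit. The same measure turned round, K43M pileups against the WT lists, was met by 1742 of 2610 K43M-only regions (66.7%). Members thus lay nearer to the other genotype's calling limit than K43M-only regions did. A K43M peak lay within 500 bp of 152 members (10.2%) and within 10 kb of 766 (51.3%).

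The best-ranked member lay in an intron of Arpp21, which encodes an RNA-binding phosphoprotein of lymphocyte precursors and neurons, at chr9:112207721-112208442. Its fold enrichment was 17.5 in WT unnumbered and 16.05 in WT replicate 2, with pileups of 93 and 68 read ends. The nearest K43M peak was 288829 bp away. A further member in Arpp21 had 7.45 and 5.67, and the promoter of Arpp21 also had a peak in both WT lists and in neither K43M list.

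The member ranked next, nearest to D3Ertd751e but 698629 bp from it, had 14.6 in WT unnumbered and 17.3 in WT replicate 2, and no K43M peak lay within 706563 bp. The member nearest to Negr1, a neuronal adhesion gene whose start is 599072 bp away, had 12.3 and 13.5. These regions stood in gene-poor DNA. The member 41058 bp downstream of the nearest start of Etv6, which encodes an ETS-family repressor, had 11.9 and 10.9. Of the 20 best-ranked members, 10 lay in introns of protein-coding genes and 10 between genes.

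Further members among the best 20 lay near genes of varied function. A region in an intron of Inpp5a, an inositol polyphosphate phosphatase, had fold enrichments of 11.3 and 9.76, and another in the same gene 10.0 and 9.80. The member nearest to the odorant receptor gene Olfr761 had 11.9 and 12.6. The one nearest to Naa20, which encodes the catalytic part of an amino-terminal acetyltransferase, had 10.2 and 12.6. An intronic member of Eps8, which encodes an actin-regulating signalling adaptor, had 10.5 and 11.3. One in the zinc-finger gene Zfp988 had 13.9 and 10.8. The rest of the 20 lay nearest to Lrig3, Ccser1, Wls, St5, Btbd11, Insc, Rngtt, Cdc73, A2ml1 and Cdca2, with fold enrichments from 7.08 to 12.8 in WT unnumbered and from 7.35 to 12.7 in WT replicate 2. All 20 thus lay above the members' upper quartiles of 7.05 and 6.62.

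At the edges of the rule, members came within a few bases of being left out. The member nearest to a promoter window was 2 bp from it, in an exon of Slc16a1, with fold enrichments of 3.60 and 4.27. The member nearest to a K43M peak was 10 bp from it, nearest to Arhgap11a, with 5.20 and 7.89. The lowest-ranked member, in an intron of Iqcb1, had 4.77 and 3.28. Just outside, a region in an intron of Snx29 had 4.74 and 5.42 in the WT lists and was dropped for a K43M replicate 2 peak of 4.24 that overlapped it by 12 bp. In all, 1698 distal regions had both WT peaks and 1 K43M peak, with a median worse WT percentile of 23.5.

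By position, the members were farther from genes than K43M-only regions. Summits lay in introns in 734 members (49.1%, 46.6 to 51.7), in exons in 74 (4.95%) and between genes in 686 (45.9%, 43.4 to 48.5). Of K43M-only regions 56.9% were intronic (55.0 to 58.8) and 35.6% intergenic (33.8 to 37.5), and of shared distal regions 49.4% and 44.8%. The members' split was close to that of shared regions, and the K43M-only regions stood apart from both.

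The median distance from a member to the nearest protein-coding start was 23651.5 bp, with quartiles of 8415 and 62150 bp. It was 16592 bp for K43M-only regions and 18047 bp for shared regions. A protein-coding start lay within 10 kb of 433 members (29.0%, 26.7 to 31.3), of 36.0% of K43M-only regions (34.2 to 37.9) and of 31.9% of shared regions (30.9 to 32.9). Within 100 kb the shares were 83.7% (81.7 to 85.5), 88.2% (86.9 to 89.4) and 88.7%. The members thus had the largest share of summits over 100 kb from any protein-coding start. Their nearest start was upstream in 53.1% of cases, and 619 members (41.4%) lay inside their own nearest gene.

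**Figure D4:**
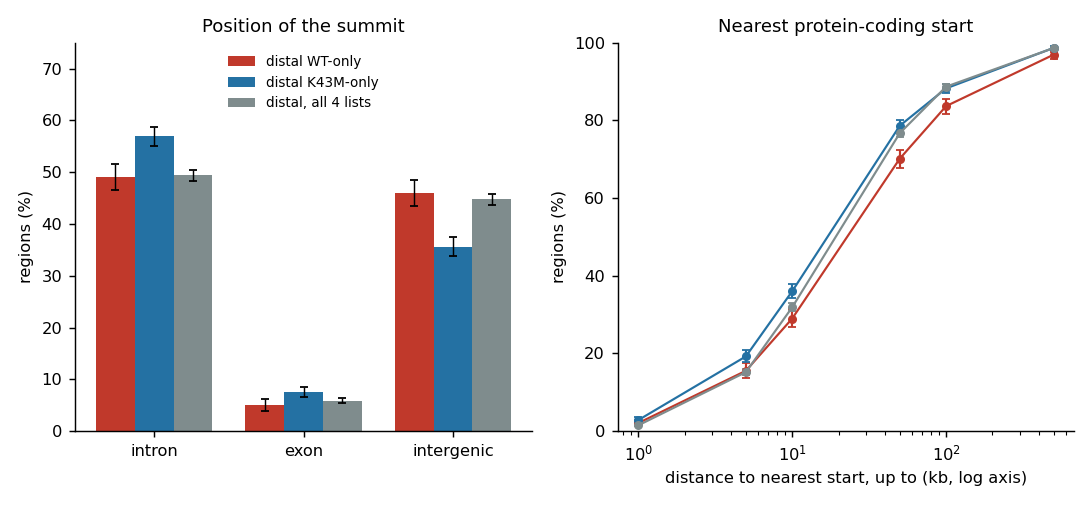
Left, percentage of regions (y axis) whose summit lay in an intron, an exon or between genes; right, percentage (y axis) with a protein-coding transcript start within a given distance (x axis, kb, log). Red is distal WT-only, blue distal K43M-only, grey shared distal, with Wilson 95% intervals; within 100 kb the shares were 83.7%, 88.2% and 88.7%.

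The members were spread over the genome with some short runs. Another member lay within 50 kb of 325 members (21.8%, 19.7 to 23.9). It was 33.4% without WT unnumbered and 39.2% without WT replicate 2, which leave more members. The K43M-only class, larger in number, had 31.0%, so pairs are more telling. Of the other distal regions within 10 kb of a member, 142 of 1399 pairs (10.2%) joined it to another member, against the 5.16% of all distal regions that are members. Within 50 kb the share was 8.29% and within 100 kb 7.47%. Members were therefore more often beside members than their number alone gives, and the excess shrank with distance. The same held for the K43M-only class, so it was not particular to members. Of pairs starting from a K43M-only region, 12.6% within 10 kb joined it to another of its class, against 9.01%. Within 50 kb the share was 11.6% and within 100 kb 11.4%. A pair inside a class was counted from each of its ends. In the members' pairs within 10 kb, K43M-only regions took 5.86%, below their 9.01% of all distal regions. Grouping members with gaps up to 50 kb gave 1315 groups, of which 1169 were single regions, 118 pairs, 23 groups of 3 and 5 groups of 4.

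The tightest group of 4 lay within 33664 bp (chr5:107738980-107772643) upstream of Gfi1, which encodes a zinc-finger repressor of blood cell development, and reached into introns of its neighbour Evi5. All 4 distal regions in that span were members. Its strongest region, shown above, had fold enrichments of 10.3 in WT unnumbered and 9.06 in WT replicate 2, and the others had 5.11 to 8.09 and 4.59 to 5.56. The K43M lists had no distal peak in the span.

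The group at chr7:139319280-139412834 lay between Pwwp2b and Inpp5a and inside Inpp5a. It held 5 distal regions, of which 4 had peaks in WT unnumbered, 5 in WT replicate 2 and none in the K43M lists. Inpp5a was nearest to 4 members among 6 distal regions, and none of the 6 had a K43M peak. In this locus the distal peaks were missing from the K43M lists while the Inpp5a promoter was open in all 4 lists.

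A group inside Pip4k2a, a lipid kinase gene, had 4 members among 7 distal regions in 59005 bp (chr2:18897794-18956798). WT unnumbered had peaks in 6 of the 7 and WT replicate 2 in 7. The K43M lists had peaks in 2 (replicate 1) and 1 (replicate 2). Fold enrichments of the members ran from 4.19 to 9.68.

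The last groups of 4 lay beside developmental factors. Near Sox9, a factor of cartilage and gonad development, 8 distal regions stood within 58048 bp (chr11:113045442-113103489). WT unnumbered had peaks in all 8 and WT replicate 2 in 6. Of the K43M lists, replicate 1 had none of these and replicate 2 had 3. Near Foxa2, a factor of endoderm development, the span of 105492 bp (chr2:147895755-148001246) held 6 distal regions. WT unnumbered had peaks in 6 of these and WT replicate 2 in 4, whereas K43M replicate 1 had 1 and K43M replicate 2 had 0. Over the whole neighbourhood of Foxa2, 6 of 11 distal regions were members, and of Sox9 5 of 10. WT unnumbered had a peak in every one of these 21 regions, more than WT replicate 2 with 6 and 7. The promoter of Sox9 had no peak in any list and that of Foxa2 in 1 list.

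The members were nearest to 1225 protein-coding genes, 13.5% of the 9094 genes nearest to any distal region. Of these, 200 were nearest to 2 or more members, 46 to 3 or more and 17 to 4 or more. Dusp10, whose product removes phosphate from stress-activated MAP kinases, had 6 members among its 16 distal regions, with fold enrichments from 3.41 to 10.3. Snx29, a sorting nexin gene, had 5 of 19, all in its introns. Etv6 had 4 of 13, Zmat4 4 of 21 and Got2, the gene of a mitochondrial aspartate aminotransferase, 4 of 17. The Got2 members spanned 1313558 bp, none lay inside the gene, and the best-ranked was 1553067 bp from its start. Where the nearest gene of any type was an immunoglobulin kappa segment, 6 of 59 distal regions were members and 3 were K43M-only. Such regions made up 0.402% of members, 0.115% of K43M-only regions and 0.204% of all distal regions.

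Promoters of the nearest genes were mostly open whatever the genotype. Of the 1225 genes, 725 (59.2%, 56.4 to 61.9) had a promoter peak in all 4 lists, against 64.3% of genes nearest to distal K43M-only regions (62.2 to 66.4), 62.2% of those nearest to shared distal regions (60.8 to 63.6) and 48.5% of all 18813 protein-coding genes on these chromosomes. By list the shares were 64.2% (WT unnumbered), 64.0% (WT replicate 2), 66.9% (K43M replicate 1) and 65.2% (K43M replicate 2). Over all 18813 genes the shares were 51.5%, 51.5%, 54.9% and 53.6%, in the same order of lists. The K43M lists were thus no lower than the WT lists at these promoters, and the same was true over all genes. In 353 genes (28.8%) no list had a promoter peak.

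Promoter peaks in both WT lists alone were found at 14 of the 1225 genes (1.14%, 0.682 to 1.91), against 0.473% of all genes (0.385 to 0.582). They included 5730522E02Rik, Arpp21, Art3, Bmp2, Cyp4f16, Cyyr1, Dock5, Kcnn4, Lrp5, Rubcnl, Sntb1, Sstr4 and Tap2. Among them are a bone morphogenetic protein (Bmp2), a Wnt co-receptor (Lrp5), a calcium-activated potassium channel (Kcnn4), a guanine nucleotide exchange factor (Dock5) and a subunit of the peptide transporter for MHC class I loading (Tap2). The opposite pattern, a promoter peak in both K43M lists alone, was found at 28 genes (2.29%, 1.59 to 3.28), close to the 2.03% of all genes. Promoter calls belong to the same contrast as the rule, and these shares were not tested.

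The 630 shared regions that lay within 10 kb of a member had a median log2 difference in fold enrichment, WT minus K43M, of -0.0012. It was 0.048 for the 939 shared regions within 10 kb of a distal K43M-only region. For 16657 shared regions away from members and K43M-only regions it was -0.0037. Regions that lack a K43M peak cannot be among these shared neighbours, so the values describe only neighbours open in every line.

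Of 237 distal regions nearest to genes of the pre-B-cell receptor and B-cell signalling, 18 were members (7.59%, 4.86 to 11.7) and 12 were K43M-only (5.06%, 2.92 to 8.64). Over all distal regions the shares were 5.16% and 9.01%, and the members' interval included the first while the K43M-only interval lay below the second. The list's share rose, as did the background, when a library was left out. It was 14.8% without WT unnumbered, 15.2% without WT replicate 2, 13.8% without K43M replicate 1 and 10.7% without K43M replicate 2. All distal regions had 13.9%, 13.3%, 10.8% and 7.24% in these settings.

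The members of that list lay near 10 genes. Both distal regions of Cd86, a ligand that costimulates T cells, were members, and the better had fold enrichments of 7.80 in WT unnumbered and 7.96 in WT replicate 2. Both distal regions of Fcrl5 were members too, the better with 5.88 and 5.36, and Fcrl1, also an Fc receptor-like gene of B cells, had 1 of 5 with 6.41 and 6.36. Vav3, a guanine nucleotide exchange factor below antigen receptors, had 4 of 14, and none of its other regions was K43M-only or shared. Its best had 7.29 and 5.53. Ptprc, which encodes the phosphatase CD45, had 2 of 18, and Prkcb, a protein kinase C gene, 1 of 12.

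B-lineage transcription factor genes did not stand out. Of 368 distal regions near them, 17 were members (4.62%, 2.90 to 7.27) and 36 K43M-only (9.78%, 7.15 to 13.2), both near the genome's shares. Gfi1 had 3 of 4. Pax5, which fixes B-cell identity, had 2 of 12, the better with 8.45 in WT replicate 2. Bcl11a had 3 of 12, and Fli1, Bcl6 and Lef1 had 1 each, with fold enrichments from 4.44 to 5.64 in WT unnumbered and from 4.76 to 7.85 in WT replicate 2. The recombination genes Rag1, Rag2 and Dntt had 5 distal regions, all shared, and no member.

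Near cytokine receptor and JAK-STAT genes, 11 of 161 distal regions were members (6.83%, 3.86 to 11.8), and as many were K43M-only. Socs3, a feedback inhibitor of cytokine signals, had 2 of 7, the better, shown above, with 6.28 and 7.07. Crlf2, part of the receptor for thymic stromal lymphopoietin, had 1 of 5 with 5.87 and 6.34. Il4ra, Il21r, Il2ra and Ifnar1, all receptor chains, had 1 each, from 4.64 to 6.25 in WT unnumbered. The list's share was near the background.

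ERK feedback regulators had 11 members among 109 distal regions (10.1%, 5.73 to 17.2), with an interval above 5.16%. Of the 11, 6 belonged to Dusp10 alone, out of its 16 distal regions. The raised share of the list thus rested mostly on that gene, whose product, as said above, acts on stress-activated MAP kinases. Dusp6 had 2 of 10, and Spred1, Etv4 and Spry2 had 1 each. K43M-only regions, 10 in number, made up 9.17% of the same list, close to 9.01%. The list's share was 20.6% without WT unnumbered, 20.8% without WT replicate 2, 13.4% without K43M replicate 1 and 15.5% without K43M replicate 2. All distal regions then had 13.9%, 13.3%, 10.8% and 7.24%, in the same order. The list was thus closest to the background without K43M replicate 1.

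**Figure D5:**
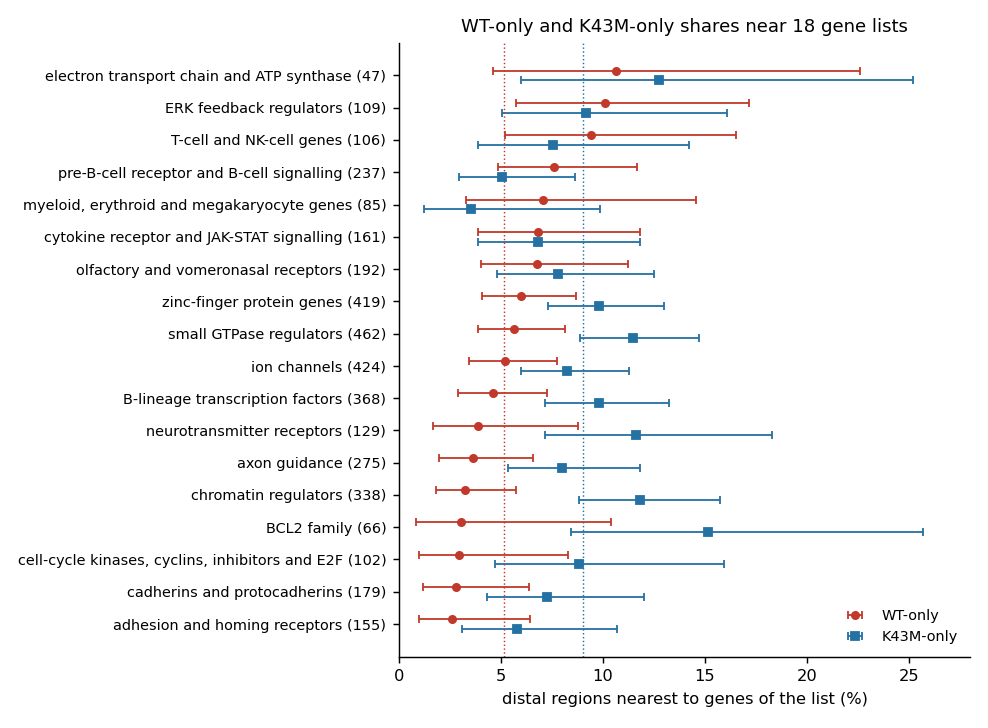
Percentage of the distal regions nearest to genes of a list (x axis) that were WT-only (red circles) or K43M-only (blue squares), for 18 lists with the number of distal regions in brackets (y axis); bars are Wilson 95% intervals and dotted lines the shares over all distal regions, 5.16% and 9.01%. Most red intervals cross the red line; those of the T-cell and ERK feedback lists, at 9.43% and 10.1%, lie above it.

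T-cell and NK-cell genes had 10 members among 106 distal regions (9.43%, 5.21 to 16.5), the lower bound just above the background, and 8 K43M-only regions (7.55%, 3.87 to 14.2). The members' share was 20.8% without WT unnumbered, 25% without WT replicate 2, 15.5% without K43M replicate 1 and 12.2% without K43M replicate 2. The background rose too: all distal regions then had 13.9%, 13.3%, 10.8% and 7.24%, in that order. The best lay in Klrb1c, an NK-cell lectin receptor gene (8.02 and 7.37), and near Skap1, a T-cell adaptor gene (8.57 and 10.1). Prkcq and Cd2 had 2 each, and Eomes and Lat 1 each. Myeloid, erythroid and megakaryocytic genes had 6 of 85 (7.06%), of which 3 were near Klf4, beside 3 K43M-only regions (3.53%). With 19 lists looked at and 11 or fewer members in each of these, such shares are descriptions.

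Chromatin regulators had 11 members among 338 distal regions (3.25%, 1.83 to 5.73) and 40 K43M-only regions (11.8%, 8.81 to 15.7). BCL2 family genes had 2 of 66 (3.03%), near Bcl2l11 and Bmf, which encode death-promoting members, and 10 K43M-only regions (15.2%, 8.44 to 25.7). Small GTPase regulators had 26 of 462 (5.63%, 3.87 to 8.12) and 53 K43M-only regions (11.5%, 8.88 to 14.7). In these 3 lists the members' intervals included the background of 5.16%. The K43M-only intervals included theirs of 9.01%.

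Cell-cycle genes had 3 members among 102 distal regions (2.94%, 1.01 to 8.29). They were 1 region near Cdkn2b, which encodes a CDK4/6 inhibitor, with 7.55 and 7.91, and 2 near Cdc25a, a CDK-activating phosphatase gene, the better with 7.72 and 9.20. Electron transport chain and ATP synthase genes had 5 of 47 (10.6%, 4.63 to 22.6), and the interval included the background. The nearest genes were Atp5g3, Ndufa6, Cox4i1 and Ndufa4, though the Ndufa4 member lay 576486 bp from its start. Adhesion and homing receptor genes had 4 of 155 (2.58%), the best near Cd34 with 9.60 and 7.75.

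The lists with little known role in B cells gave shares on both sides of the background. Ion channels had 22 of 424 (5.19%), neurotransmitter receptors 5 of 129 (3.88%), axon guidance genes 10 of 275 (3.64%) and cadherins and protocadherins 5 of 179 (2.79%). Zinc-finger protein genes had 25 of 419 (5.97%) and olfactory and vomeronasal receptor genes 13 of 192 (6.77%). All of these intervals included 5.16%.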

How the data were processed

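ATAC-seq peak lists of 4 lines, 2 per genotype, were analysed. Per the sources used here, the authors trimmed reads (Trimmomatic 0.36), mapped them to mm10 (BWA 0.7.15), removed multimapping and low-quality reads (SAMtools 1.3.1) and called peaks for each library with MACS2 2.1.0, with replicates kept apart and no control library named. The deposited values are, for each peak, the fold enrichment of the summit over local background (a ratio) and −log10 of its p-value and q-value. Total read numbers are not given in the sources used here. Summit pileups were recovered from fold and p in 100% of peaks, and genome background was 48.4 to 65.3 read ends per 10 kb, so the lists differ in sensitivity. Transcript starts came from GENCODE vM21 and sequences from the RefSeq GRCm38 genome (pysam 0.24.0, scipy 1.17.1). The merging and recovery steps were tested on simulated data. The unnumbered list was taken as WT from its name and the series text.

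The members, gene lists and motifs were chosen with earlier results of these data known. Named regions were the 20 best-ranked members, the 10 genes and 5 groups with most members, up to 6 genes per list, and the edge cases; a few items under this rule are not reported here. The E-box comparison was singled out after the motif shares were seen. No test across regions was run. The alternatives concerned peak threshold, list size, overlap, windows, distances, chromosomes and libraries.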

Additional observations from a re-analysis of the deposited data

How the results depend on the processing

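The number of members was 971 when both WT peaks needed −log10 q of at least 5, against 1494, and stayed within 1.5 times of 1494 under the other thresholds, windows, overlaps and chromosome sets tried. Leaving out 1 library gave 1968 to 3780 members: 3780 without WT unnumbered, 3593 without WT replicate 2, 2752 without K43M replicate 1 and 1968 without K43M replicate 2. The share of members with another within 50 kb, 21.8%, was 19.5% with −log10 q of at least 5 in every list, 18.02% with it in the WT lists, 13.6% within 20 kb, 31.4% within 100 kb and 24.2% to 39.2% with 1 library left out, where more regions count as members; it was 33.4% without WT unnumbered and 39.2% without WT replicate 2. The share of nearest genes with a promoter peak in every list used, 59.2%, was 57.7% to 59.6% with 1 library left out. The E-box share of members exceeded that of K43M-only regions by 15.6 percentage points, by 11.9 within 50 bp of the summit, and by 7.22 to 15.6 with 1 library left out: 7.22 without WT unnumbered, 9.45 without WT replicate 2, 9.78 without K43M replicate 1 and 15.6 without K43M replicate 2. The difference was positive in all alternatives run, which were chosen for this comparison after seeing the data. The share of all distal regions that are members, 5.16%, was 7.24% to 13.9% with 1 library left out, a background computed after seeing the data. The median distance was 11860 bp to a start of any gene type. No paired analysis was possible because the lines were transformed separately, the labels name no pairs between the genotypes and 1 WT list carries no number. Peak lists hold only regions past a threshold, so low signal in the K43M lines could not be measured.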

Other observations

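By chromosome, members made up 3.34% of distal regions on chromosome 19 (30 of 899) and up to 6.39% on chromosome 3 (121 of 1893), while K43M-only regions made up 8.07% to 10.1% of each chromosome's distal regions. Median local background per chromosome differed between the genotypes by -0.16 (chromosome 5, where members made up 4.38%) to 0.05 (chromosome 1) on the log2 scale, WT minus K43M. The part of background in the calls was not tested.

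ETS letters, like E-boxes, could be read in regions with a peak in 1 list alone, none of which are members. They lay near the summit in 9.94% of such regions of WT unnumbered, 7.22% of WT replicate 2, 4.77% of K43M replicate 1 and 4.45% of K43M replicate 2, and here the lines of the genotypes did not overlap. FOXO letters were found in 4.31% and 2.97% of the WT lists' regions and 2.54% and 2.77% of the K43M lists'. That gap was small, and the interval of WT replicate 2 (2.34 to 3.77) overlapped both K43M intervals (2.09 to 3.09 and 2.15 to 3.57). RUNX letters were found in 8.86%, 6.68%, 5.37% and 7.08%, in the same order of lists, and there the genotypes overlapped. With 2 lines each, none of these orders can be tested below a two-sided exact permutation p of 0.333.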
